A study of Homo sapiens with 12 samples.

Results

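The 8 genes described here encode enzymes that make or interconvert asparagine, aspartate, alanine, glutamine and proline: ASNS, GOT1, GOT2, GPT2, GLUL, PYCR1, PYCR3 and ALDH18A1. They were chosen by name, and each symbol matched 1 of the 60664 genes in the count table. Poly(A) RNA was sequenced from TOM-1 and RS4;11, a pair of human B-cell acute lymphoblastic leukaemia cell lines whose genotype is labelled WT. TOM-1 carries the BCR-ABL1 fusion of the Philadelphia chromosome, and RS4;11 carries a rearrangement of KMT2A. Each line was grown in RPMI with fetal bovine serum and kept for 24 h without treatment or in 1000 ng/ml of ADI-PEG20, a pegylated arginine deiminase that converts extracellular arginine to citrulline. Line and treatment make 4 groups of 3 libraries, and both lines had a control group and a treated group. Each line is a single model of its leukaemia subtype, so line and subtype cannot be told apart. The labels do not say whether the 3 libraries of a group came from separate cultures, and p-values therefore measure only the spread between these libraries.

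Aspartate and alanine aminotransferases move amino groups between glutamate and the keto acids oxaloacetate and pyruvate. Aspartate is in turn the substrate of asparagine synthetase, of nucleotide synthesis and of argininosuccinate synthase, the enzyme with which cells begin to rebuild arginine from citrulline. Glutamate is amidated to glutamine by glutamine synthetase, or reduced to pyrroline-5-carboxylate and then to proline. Several of these genes are known targets of ATF4, a transcription factor translated when amino acids run short, and lymphoblasts with little ASNS are the textbook target of asparaginase.

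The libraries held 18958144 to 35956959 counts. TOM-1 control replicate 3 stood apart from the rest and is called the divergent control here. It had reads in 14963 genes (the other libraries in 19857 to 21997), and ribosomal protein genes took 19.8% of its counts, against 5.91 to 9.89%. Its log2 CPM (counts relative to the library total, with the libraries scaled by edgeR's TMM method) correlated with its replicates at 0.921 to 0.926 across genes, whereas the lowest value of any other replicate pair was 0.975. The effects of treatment in TOM-1 are therefore given with and without that library for the 8 genes and their named neighbours. The line labels were checked against marker genes. The 8 B-lineage markers summed to 2433 to 4200 CPM in every library, and HOXA9 and MEIS1, which mark leukaemia with a KMT2A rearrangement, summed to 140.2 to 159.4 CPM in RS4;11 and had no counts in TOM-1. Among 5 T cell markers, CD3D, CD3E, CD3G and CD2 stayed at or below 0.239 CPM while TRAC reached 122.7 to 479.1 CPM. The 5 myeloid markers summed to 10.2 to 26.7 CPM and the 3 erythroid ones to at most 0.257 CPM.

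Promoters of 5 of the 8 genes were found in RefSeq (GRCh38.p14): ASNS, GOT1, GOT2, GLUL and ALDH18A1. GPT2, PYCR1 and PYCR3 were not matched. The 250 bases before each start were searched on both strands for TGATGNAAN, whose reverse complement is NTTNCATCA, the letters of the element that C/EBP and ATF proteins share. The letters occurred in ASNS and in GOT1, and these are the matches, 5′ to 3′ on the strand of the gene with the 9 matching bases in capitals:
ASNS: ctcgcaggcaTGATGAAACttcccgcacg
GOT1: aattgcattgGTTGCATCAttctcggcag
The ASNS window lies at chr7:97872458-97872486 on the minus strand, with the match on the gene's own strand, 68 to 60 bases before the start. The GOT1 window lies at chr10:99430805-99430833, also on the minus strand, with the match on the opposite strand, 199 to 191 bases before the start. Both starts are those of RefSeq, and they lie inside the spans that GENCODE gives the genes below. Of 35116 promoter entries, 1100 (3.13%) held the letters on either strand within the same length, and 559 (1.59%) on the strand of the gene. Counted by gene, 1057 of 27305 (3.87%) held them on either strand and 545 (2%) on the strand of the gene. ASNS had 2 promoter entries, of which 1 held the letters. A match describes letters in the window, and the binding of a factor was not measured.

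ADI-PEG20 for 24 h changed 6 of the 8 genes in TOM-1 by edgeR's quasi-likelihood test at an adjusted p under 0.05. GOT1, GPT2 and, at an adjusted p of 0.0448, ASNS rose, GOT2, PYCR3 and ALDH18A1 fell, and GLUL and PYCR1 did not pass. Without the divergent control, 3 genes were higher and 4 lower, with PYCR1 added. Across the 17349 genes tested, 31.9% were called in this comparison, 15.9% higher and 15.9% lower, and across the 18321 tested without the divergent control 41.6% were, 21.8% higher and 19.8% lower. The median log2 fold change of the 8 genes was -0.07, beside 0.05 over all genes tested. In RS4;11, edgeR called none of the 8 genes, as did DESeq2, and none had an unadjusted p under 0.05. That comparison called 0% of all genes at the adjusted threshold and 1.87% at an unadjusted p under 0.05, and the median log2 fold changes were -0.10 for the 8 genes and 0.00 for all. Standard errors of all 8 genes in RS4;11 were smaller when the divergent control was left out of the shared fit. None of the 8 was called then either, against 0.317% of all genes, and the lowest adjusted p was 0.147, for GOT2 at a log2 fold change of -0.21. In that fit 3 genes had 95% intervals below 0 before adjustment, GOT2 (-0.34 to -0.08), PYCR3 (-0.50 to -0.07) and ALDH18A1 (-0.26 to -0.01), and 2207 of the 18321 genes tested had an unadjusted p under 0.05. In bulk RNA, fewer cells expressing a gene and less of its RNA per cell cannot be told apart.

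**Figure D1:**
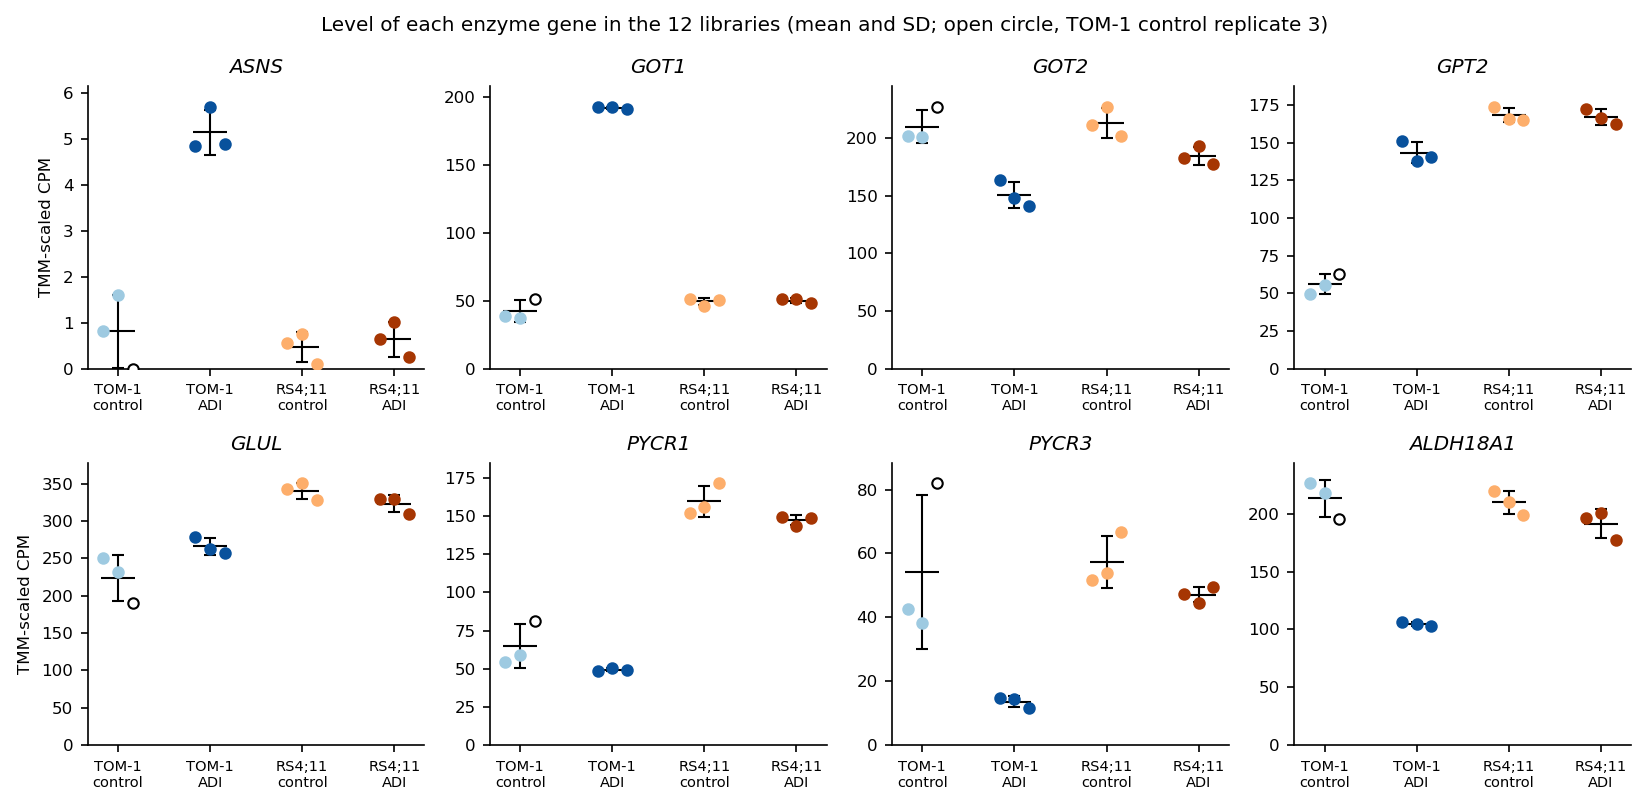
Level of each enzyme gene in each library, in CPM scaled by TMM on the vertical axis (each panel has its own scale), with the 4 groups on the horizontal axis. Points are libraries, lines and bars are the mean and SD of 3 libraries, and the open circle is TOM-1 control replicate 3. GOT1 sat between 191.1 and 192.5 CPM in the treated TOM-1 libraries and between 37.1 and 51.5 CPM in all others.

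GOT1 (ENSG00000120053, chromosome 10, 99396870 to 99431569 on the minus strand of GRCh38) encodes the cytosolic aspartate aminotransferase. It stood at 38.5, 37.1 and 51.4 CPM in TOM-1 control replicates 1, 2 and 3 and at 192.5, 192.3 and 191.1 CPM in the treated TOM-1 libraries. In RS4;11 the levels were 51.5, 46.1 and 50.5 CPM in control culture and 50.9, 51.1 and 48.0 CPM with ADI-PEG20. The treated TOM-1 libraries thus lay far above the other 3 groups, which overlapped one another. The log2 fold change in TOM-1 was 2.18 (SE 0.14, adjusted p = 1.66e-06), a 4.54-fold rise, and 2.34 without the divergent control (adjusted p = 2.39e-15). The RS4;11 change was 0.02, with a 95% interval of -0.27 to 0.30 on the log2 scale.

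GOT1 shares 19.3% of its 3369 exonic bases with GOT1-DT, a transcript of the opposite strand. Whether the counting used strand is not given in the sources used here, so reads of that stretch cannot be told apart. GOT1-DT held 17 to 136 counts per library, and its own log2 fold change in TOM-1 was 0.62 (SE 0.55, adjusted p = 0.435), or 0.22 without the divergent control (adjusted p = 0.733).

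GOT2 (ENSG00000125166, chromosome 16, 58707131 to 58734357 on the minus strand) encodes the mitochondrial aspartate aminotransferase, which works with GOT1 in the malate-aspartate shuttle. It moved the other way from GOT1. Its level was 202.0, 201.6 and 227.3 CPM in TOM-1 control and 163.5, 148.4 and 141.4 CPM with ADI-PEG20. RS4;11 had 211.6, 227.1 and 201.7 CPM in control and 183.2, 192.9 and 177.3 CPM with the enzyme. In both lines each treated library was below each control library. The log2 fold change was -0.48 in TOM-1 (SE 0.11, adjusted p = 0.0054; -0.42 without the divergent control, adjusted p = 4.12e-05). A fit on the 6 TOM-1 libraries alone lost that call, at -0.51 with an adjusted p of 0.06. In RS4;11 the log2 fold change was -0.21, with a 95% interval of -0.44 to 0.02.

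The ratio of GOT1 to GOT2 counts per kb of exon, chosen after the values were seen, was 0.213, 0.206 and 0.253 in TOM-1 control and 1.32, 1.45 and 1.51 with ADI-PEG20. The cytosolic isozyme thus went from the lesser to the greater transcript of the pair, a 6.39-fold change of the ratio (6.80-fold without the divergent control). In RS4;11 the ratio was 0.260 ± 0.0285 in control and 0.303 ± 0.00724 under treatment (SD, n = 3), with no overlap and a 1.17-fold difference. The exact permutation test, two-sided, gave p = 0.1 in each line, the smallest that 3 libraries against 3 allow. Groups that do not overlap can give no other value, and the ratio was chosen with its values known. The test therefore adds nothing to the values and does not separate the lines.

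**Figure D2:**
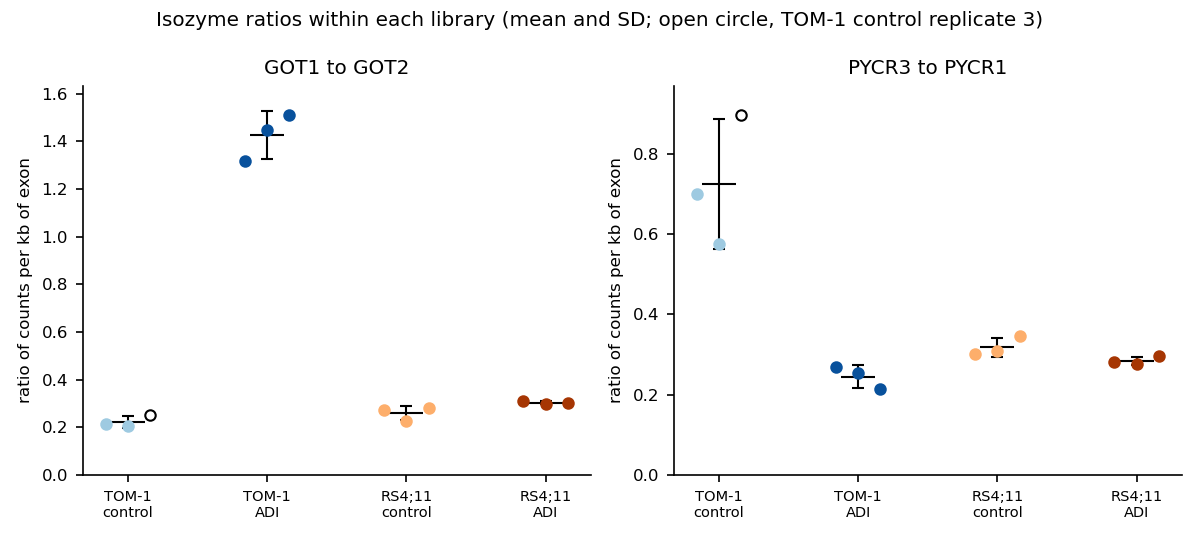
Ratio of GOT1 to GOT2 (left) and of PYCR3 to PYCR1 (right) within each library, as counts per kb of exon on the vertical axis, for the 4 groups. Points are libraries, lines and bars are the mean and SD of 3 libraries, and the open circle is TOM-1 control replicate 3. The first ratio was 1.32 to 1.51 in treated TOM-1 and at most 0.311 elsewhere, and the second was 0.576 to 0.897 in TOM-1 control and at most 0.346 elsewhere.

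GPT2 (ENSG00000166123, chromosome 16, 46884378 to 46931297 on the plus strand) encodes the mitochondrial alanine aminotransferase. It stood at 49.7, 55.3 and 63.0 CPM in TOM-1 control and at 151.3, 138.1 and 140.4 CPM with ADI-PEG20. RS4;11 had 173.7, 165.6 and 165.2 CPM in control and 172.5, 166.1 and 162.4 CPM under treatment. TOM-1 control was low and the other 3 groups were high, with treated TOM-1 still below every RS4;11 library. The log2 fold change in TOM-1 was 1.36 (SE 0.11, adjusted p = 1.09e-05), or 2.56-fold, and 1.45 without the divergent control (adjusted p = 1e-12). The RS4;11 change was -0.01, with a 95% interval of -0.25 to 0.23. GPT, the cytosolic isozyme, was at 5.99 ± 2.75 CPM in TOM-1 control and 6.75 ± 0.867 CPM under treatment (SD, n = 3). Its log2 difference of 0.17 did not pass (adjusted p = 0.739), nor did -0.07 without the divergent control (adjusted p = 0.905).

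ASNS (ENSG00000070669, chromosome 7, 97852118 to 97872542 on the minus strand) encodes asparagine synthetase, which makes asparagine from aspartate with glutamine as the nitrogen donor. Its level is uncertain, because 44.6% of its 4455 exonic bases also belong to ENSG00000284707, a processed transcript on the same strand, and the treatment of shared reads is not given in the sources used here. The ASNS counts were 29, 41 and 0 in TOM-1 control and 113, 149 and 124 with ADI-PEG20. They were 13, 18 and 2 in RS4;11 control and 16, 21 and 5 under treatment. All 12 values are low, the 0 of the divergent control allows up to 3 counts (0.166 CPM), and only the treated TOM-1 libraries lie above the rest.

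As CPM, ASNS was 0.824, 1.60 and 0 in TOM-1 control and 4.84, 5.69 and 4.88 with ADI-PEG20. The log2 fold change was 2.63 (SE 0.91, adjusted p = 0.0448), and 2.09 without the divergent control (SE 0.57, adjusted p = 0.005). The call was near the threshold: it was lost on leaving out any 1 of 9 of the 12 libraries, with adjusted p up to 0.116, and kept without TOM-1 control replicate 2, the divergent control or RS4;11 control replicate 3. A fit on the 6 TOM-1 libraries alone lost it too (2.61, adjusted p = 0.105). The change in RS4;11 was 0.44 with a 95% interval of -1.64 to 2.52, and 0.43 with an interval of -0.77 to 1.64 without the divergent control.

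The overlapping transcript held 79, 62 and 0 counts in TOM-1 control and 68, 59 and 53 with ADI-PEG20. In RS4;11 it held 113, 131 and 119 counts in control and 149, 91 and 119 under treatment. So it outnumbered ASNS in every RS4;11 library and in TOM-1 control replicates 1 and 2, and was outnumbered in treated TOM-1. ASNS took 26.9 and 39.8% of the summed counts in TOM-1 control replicates 1 and 2, and 62.4, 71.6 and 70.1% with ADI-PEG20. In RS4;11 its share was 1.65 to 18.8%. The overlapping transcript alone had a log2 fold change of 0.59 in TOM-1 (adjusted p = 0.589), and 0.05 without the divergent control (adjusted p = 0.951).

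With both summed, the log2 fold change in TOM-1 was 1.64 (SE 0.72, adjusted p = 0.104), and 1.09 without the divergent control (SE 0.24, adjusted p = 0.000629). The sum did not pass with all libraries and passed without the divergent control, and it was smaller than that of ASNS alone.

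**Figure D3:**
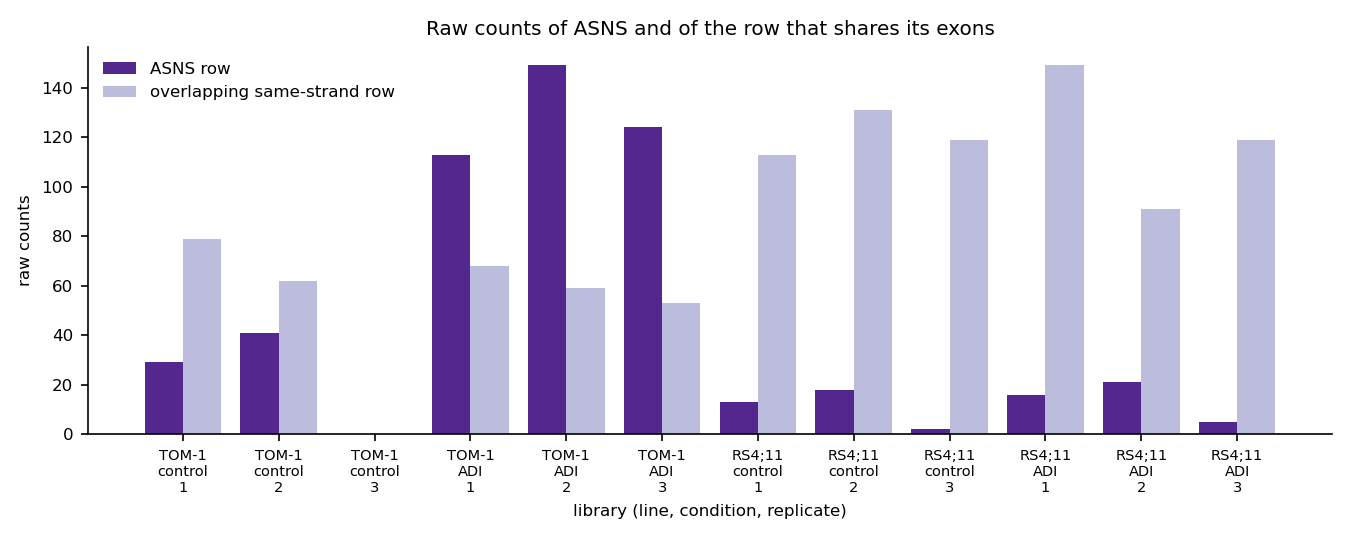
Raw counts of ASNS (dark bars) and of the same-strand transcript that shares its exons (light bars), with the 12 libraries along the horizontal axis. ASNS exceeded the overlapping transcript in the 3 treated TOM-1 libraries, with 113 to 149 counts against 53 to 68, and both were at 0 in TOM-1 control replicate 3.

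GLUL (ENSG00000135821, chromosome 1, 182381704 to 182392206 on the minus strand) encodes glutamine synthetase. It stood at 250.7, 231.2 and 190.6 CPM in TOM-1 control and at 279.1, 262.1 and 257.1 CPM with ADI-PEG20. RS4;11 had 342.5, 350.4 and 328.7 CPM in control and 330.0, 329.8 and 310.1 CPM under treatment. The treated TOM-1 libraries lay above the controls without overlap, but the log2 difference of 0.25 (SE 0.11) did not pass (adjusted p = 0.122), nor did 0.14 without the divergent control (adjusted p = 0.0803). In RS4;11 the difference was -0.08, with a 95% interval of -0.32 to 0.17.

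Of the proline enzymes, ALDH18A1 (ENSG00000059573, chromosome 10, 95605929 to 95656706 on the minus strand) encodes pyrroline-5-carboxylate synthase, the first step from glutamate. It stood at 226.2, 218.1 and 195.3 CPM in TOM-1 control and at 106.7, 104.8 and 102.7 CPM with ADI-PEG20. RS4;11 had 219.8, 210.3 and 199.2 CPM in control and 196.6, 200.6 and 177.2 CPM under treatment. Treated TOM-1 was low and the other 3 groups were alike in range. The log2 fold change in TOM-1 was -1.03 (SE 0.11, adjusted p = 4e-05), 2.04-fold lower, and -1.09 without the divergent control. For RS4;11 the change was -0.13, with a 95% interval of -0.36 to 0.09.

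PYCR1 and PYCR3 encode reductases of the last step, from pyrroline-5-carboxylate to proline, PYCR1 in mitochondria and PYCR3 in the cytosol. PYCR3 (ENSG00000104524, chromosome 8, 143603913 to 143609773 on the minus strand) fell the most of the 8 genes. It stood at 42.5, 38.1 and 81.9 CPM in TOM-1 control and at 14.6, 14.4 and 11.7 CPM with ADI-PEG20. RS4;11 had 51.6, 54.0 and 66.6 CPM in control and 47.2, 44.6 and 49.4 CPM under treatment. The divergent control was well above its replicates, and every treated TOM-1 library was below every other library. The log2 fold change in TOM-1 was -1.99 (SE 0.26, adjusted p = 0.000179), 3.98-fold lower, and -1.57 without the divergent control (SE 0.12, adjusted p = 7.51e-10), 2.98-fold lower. In RS4;11 it was -0.29, with a 95% interval of -0.82 to 0.25, and the groups did not overlap.

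PYCR1 (ENSG00000183010, chromosome 17, 81932384 to 81942412 on the minus strand) stood at 54.1, 58.9 and 81.3 CPM in TOM-1 control and at 48.6, 50.6 and 48.9 CPM with ADI-PEG20. RS4;11 had 152.1, 156.0 and 171.4 CPM in control and 149.5, 143.7 and 148.6 CPM under treatment. In each line the treated libraries were below the controls, and RS4;11 was high throughout. The log2 difference in TOM-1 was -0.39 (SE 0.14, adjusted p = 0.0576). It passed with DESeq2 size factors (-0.44, adjusted p = 0.047) and with upper-quartile scaling (-0.48, adjusted p = 0.0424). Leaving out any 1 TOM-1 control library brought it past the threshold too, and without replicate 3 it was -0.19 (adjusted p = 0.0393). It passed in only 3 of the 12 fits with 1 library left out and in 4 of the 9 other alternatives. In RS4;11 the difference was -0.12, with a 95% interval of -0.43 to 0.19. PYCR1 shares 14.1% of its exonic bases with MYADML2 on the same strand, whose highest count was 12, and 15.6% with an opposite-strand transcript that had 0 counts in all.

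The ratio of PYCR3 to PYCR1 per kb of exon, also chosen after the values were seen, was 0.699, 0.576 and 0.897 in TOM-1 control and 0.268, 0.253 and 0.213 with ADI-PEG20. It was 2.92-fold lower under treatment, and 2.61-fold lower without the divergent control. The RS4;11 ratio was 0.318 ± 0.0239 in control and 0.284 ± 0.0104 under treatment (SD, n = 3), with no overlap between the groups. The exact permutation test, two-sided, again gave p = 0.1 in each line, the smallest possible. That value too was fixed by the lack of overlap, and it adds nothing to the ratios.

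Pseudogenes named after the 8 genes held at most 7 counts in any library (14 pseudogenes, of ASNS, GOT2 and GLUL). In TOM-1 all 8 genes had groups that did not overlap, as did 46.2% of all genes tested. In RS4;11 this held for 3 of the 8 (GOT2, PYCR1 and PYCR3, each lower), and for 16.8% of all genes.

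**Figure D4:**
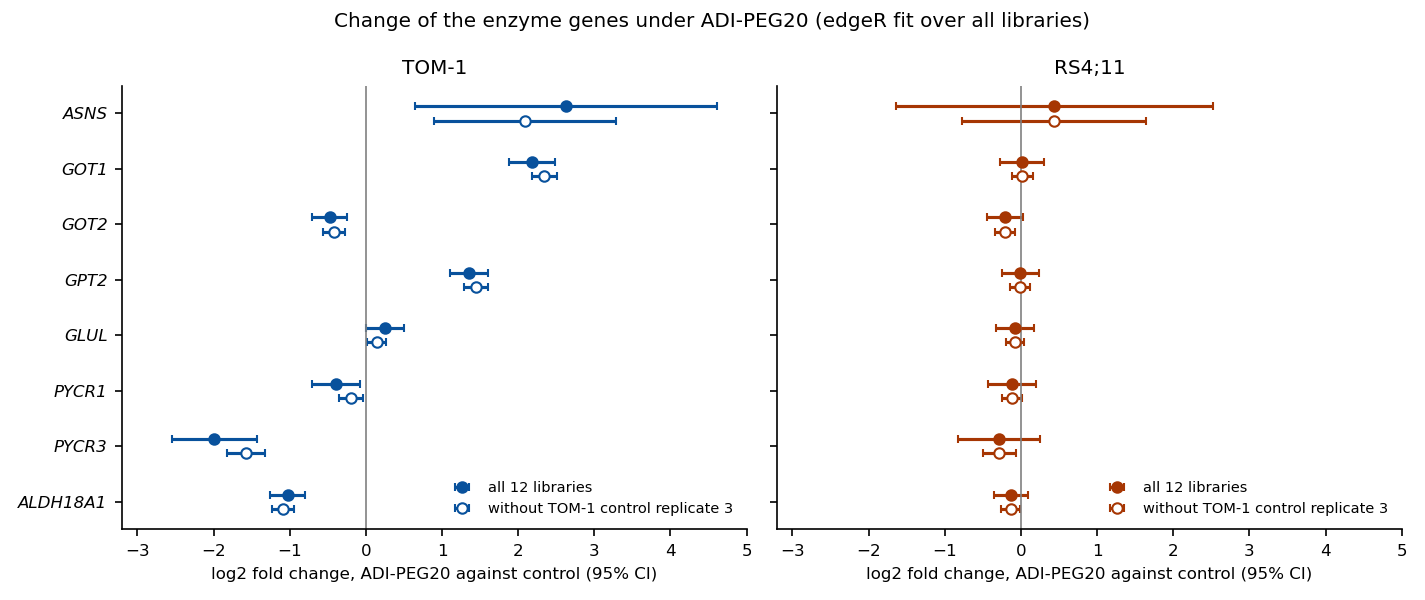
Log2 fold change of each gene with ADI-PEG20 against control in TOM-1 (left) and RS4;11 (right) on the horizontal axis, with 95% intervals from edgeR. Filled points use all 12 libraries and open points leave out TOM-1 control replicate 3. In TOM-1, GOT1 lay at 2.18 and PYCR3 at -1.99, whereas every interval in RS4;11 with all 12 libraries included 0.

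The difference between the 2 effects was tested directly, as the change in TOM-1 minus that in RS4;11. It was called for 4 of the 8 genes, 2 higher and 2 lower, against 11.9% of all genes tested (5.89% higher and 6.05% lower). For GOT1 the difference was 2.16 on the log2 scale (SE 0.19, adjusted p = 7.11e-05) and for GPT2 1.37 (SE 0.16, adjusted p = 0.000409). For PYCR3 it was -1.71 (SE 0.35, adjusted p = 0.00963) and for ALDH18A1 -0.89 (SE 0.15, adjusted p = 0.00298). Without the divergent control these were 2.32, 1.46, -1.29 and -0.96, and all 4 were called, against 30.4% of all genes (15.7% higher and 14.7% lower). ASNS (2.19, adjusted p = 0.315), GLUL (0.32, adjusted p = 0.226), GOT2 (-0.27, adjusted p = 0.287) and PYCR1 (-0.27, adjusted p = 0.437) did not pass with all libraries. Some alternatives did call 2 of these. ASNS summed with the overlapping transcript passed without the divergent control (1.01, adjusted p = 0.0162), and not with it (1.56, adjusted p = 0.354). GLUL passed with voom quality weights (0.21, adjusted p = 0.0431), and both ASNS (2.05, adjusted p = 0.0422) and GLUL (0.24, adjusted p = 0.00864) passed with the replicate block and without the divergent control.

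The lines also differed before treatment. In control culture, GPT2 was lower in TOM-1 than in RS4;11 by -1.59 on the log2 scale (adjusted p = 5.3e-07), PYCR1 by -1.30 (adjusted p = 2.09e-05) and GLUL by -0.60 (adjusted p = 0.00138). These were the 3 of 8 genes called, all lower, against 34.7% of all genes tested (16.2% higher and 18.4% lower). Without the divergent control, GOT1 (-0.39, adjusted p = 0.000201) and PYCR3 (-0.51, adjusted p = 0.000993) were called lower as well, and GPT2 (-1.68), PYCR1 (-1.50) and GLUL (-0.50) were called again, making 5 of 8 against 52.8% of all genes (25.4% higher and 27.5% lower). ALDH18A1 and GOT2 differed by 0.02 and -0.02, and by 0.08 and -0.08 without the divergent control.

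Under ADI-PEG20, 6 of 8 genes differed between the lines, 2 higher and 4 lower in TOM-1, against 47.2% of all genes (23.1% higher and 24.0% lower). When the divergent control was left out all 8 passed, against 62.9% (31.4% higher and 31.5% lower). ASNS was higher in TOM-1 by 2.99 (adjusted p = 0.02) and GOT1 by 1.94 (adjusted p = 3.26e-07) on the log2 scale. PYCR3 (-1.79), PYCR1 (-1.58), ALDH18A1 (-0.87) and GOT2 (-0.29, adjusted p = 0.0428) were lower. The ASNS difference was 0.30 when its counts were summed with the overlapping transcript (adjusted p = 0.754). GPT2, which had differed by -1.59 in control culture, differed by -0.22 and did not pass (adjusted p = 0.124). GLUL stood at -0.28 (adjusted p = 0.0616). The call of ASNS was lost on leaving out TOM-1 ADI-PEG20 replicate 2 or RS4;11 ADI-PEG20 replicate 1 or 3, with values of 2.55 to 3.41 over all libraries left out. That of GOT2 was lost without TOM-1 ADI-PEG20 replicate 2 or 3, RS4;11 control replicate 1, or RS4;11 ADI-PEG20 replicate 1 or 2, over a range of -0.40 to -0.28. The comparisons between the lines share libraries with those of treatment, so the same libraries enter both.

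Levels were compared between genes per kb of exon. In TOM-1 control, ALDH18A1 (56.6 ± 4.25 CPM per kb) and GOT2 (55.8 ± 3.91) came first, within each other's spread. GLUL (24.8 ± 3.39), PYCR1 (22.4 ± 5.03) and PYCR3 (16.7 ± 7.44) followed, then GOT1 (12.6 ± 2.34), each within the spread of its neighbour in the order, and GPT2 (8.81 ± 1.05) and ASNS (0.181) came last. Without the divergent control the spreads were narrower, and ALDH18A1 (59.0 ± 1.52) lay above GOT2 (53.6 ± 0.0872). GLUL (26.7 ± 1.53), PYCR1 (19.6 ± 1.18) and PYCR3 (12.4 ± 0.961) were then apart as well, with the mean of GOT1 (11.2 ± 0.291) just below the spread of PYCR3 (SD, n = 2). With ADI-PEG20 the order changed, and GOT1 led at 57.0 ± 0.230 CPM per kb (SD, n = 3).

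In treated TOM-1, GOT2 (40.1 ± 3.00) was next, then GLUL (29.5 ± 1.28) and ALDH18A1 (27.8 ± 0.530). Libraries of GLUL and ALDH18A1 were close but did not overlap, at 28.5 to 30.9 and 27.3 to 28.3 CPM per kb. GPT2 (22.5 ± 1.11), PYCR1 (17.1 ± 0.373), PYCR3 (4.19 ± 0.499) and ASNS (1.15) completed the order. In RS4;11 control, GOT2 (56.7 ± 3.40), ALDH18A1 (55.7 ± 2.73) and PYCR1 (55.4 ± 3.53) were alike within their spread. Below them came GLUL (37.7 ± 1.22), GPT2 (26.5 ± 0.755), PYCR3 (17.7 ± 2.49), GOT1 (14.7 ± 0.847) and ASNS (0.104). PYCR1 was therefore level with GOT2 in RS4;11 and well below it in TOM-1. In treated RS4;11 the values ran from 51.0 for PYCR1 to 0.143 for ASNS.

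The partners of these enzymes were examined in lists of neighbouring genes, by the same fit, in which the median log2 fold change of all genes in TOM-1 was 0.05 (0.00 when the divergent control was left out). The counts below stand beside 31.9% of all genes called in TOM-1, or 41.6% without the divergent control. Of 6 listed genes of the malate-aspartate shuttle and of mitochondrial glutamate transport, 3 fell in TOM-1 and none rose, with a median log2 fold change of -0.70 (-0.40 and 4 lower without the divergent control). The list holds SLC25A22, a mitochondrial glutamate carrier that is not part of the shuttle itself, and of the 5 shuttle genes 2 fell, MDH2 and MDH1. MDH1, named after its values were seen, fell by 0.82 (adjusted p = 0.00218; -0.60 without the divergent control). SLC25A22 fell by 1.46 on the log2 scale (adjusted p = 0.001; -1.06 without the divergent control), from 81.8 ± 34.2 to 29.8 ± 3.13 CPM. MDH2, mitochondrial malate dehydrogenase, went from 250.4 ± 112 to 121.2 ± 6.33 CPM, a log2 change of -1.05 (adjusted p = 0.00478) that was -0.62 without the divergent control.

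Of 6 tested genes of proline and ornithine use (8 listed), 2 fell and none rose, a share near that of all genes, with a median of -0.33 (-0.08, with 1 higher and 2 lower, without the divergent control). ALDH4A1, which oxidises pyrroline-5-carboxylate back to glutamate, went from 44.4 ± 4.84 to 19.3 ± 0.217 CPM in TOM-1 (SD, n = 3), a log2 change of -1.20 (adjusted p = 3.48e-05; -1.12 without the divergent control). In RS4;11 it stood at 31.8 and 31.7 CPM, and the difference between the lines' effects passed at -1.20 (adjusted p = 0.00124). Thus ALDH18A1, which makes pyrroline-5-carboxylate, and ALDH4A1, which removes it, both fell in TOM-1.

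OAT encodes ornithine aminotransferase, which joins ornithine to the same intermediate. It held 1253, 858 and 395 counts in TOM-1 control and 378, 510 and 480 with ADI-PEG20, and 0 counts in all 6 RS4;11 libraries. Its level in TOM-1 control, 30.3 ± 7.43 CPM, was at least 211-fold higher than in RS4;11 control, and under treatment, at 18.2 ± 1.75 CPM, at least 118-fold higher, taking 3 counts per library as the floor. Within TOM-1 it fell by 0.74 on the log2 scale (adjusted p = 0.04), or by 0.93 (adjusted p = 0.000166) when the divergent control was left out.

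Of 9 tested genes of glutamine and glutamate use (10 listed), 2 rose and 2 fell in TOM-1, with a median log2 fold change of 0.17 (-0.14 without the divergent control). BCAT1, the cytosolic branched-chain aminotransferase, rose by 0.65 on the log2 scale (adjusted p = 0.0132; 0.43 without the divergent control). BCAT2, its mitochondrial isozyme, fell by 1.35 (adjusted p = 0.00227), and by 0.88 when the divergent control was left out. NIT2, an omega-amidase, fell by 0.63 (adjusted p = 0.00165; -0.55 without the divergent control).

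Of 7 tested genes of asparagine and aspartate use (10 listed), 3 rose and 1 fell, with a median of 0.28. NARS1, cytosolic asparaginyl-tRNA synthetase, went from 196.0 ± 34.5 to 370.7 ± 1.41 CPM, a log2 change of 0.92 (adjusted p = 0.000281; 0.78 without the divergent control), and the difference between the lines' effects passed at 0.98 (adjusted p = 0.00514). AGA, a lysosomal enzyme of glycoprotein breakdown, rose by 0.98 (adjusted p = 0.000389; 1.05 without the divergent control).

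Among 9 tested glutamine amidotransferases (10 listed), 1 rose and 3 fell in TOM-1, with a median of -0.25. Without the divergent control 2 rose and 5 fell, with a median of -0.42. GFPT1, the first enzyme of the hexosamine pathway, rose by 1.00 (adjusted p = 0.00973; 0.70 without the divergent control). PFAS, of purine synthesis, fell by 1.16 (adjusted p = 0.000508), and by 1.38 without the divergent control. CAD, of pyrimidine synthesis, which uses aspartate as well as glutamine, fell by 0.70 (adjusted p = 0.00308), and by 0.84 without the divergent control.

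Of 9 tested carriers of these amino acids (13 listed), 2 rose and 1 fell, again a share near that of all genes, with a median of 0.38. Without the divergent control 5 rose and 1 fell. SLC38A2, a sodium-coupled neutral amino acid carrier, went from 426.3 ± 168 to 1091 ± 15.8 CPM, a log2 change of 1.36 (adjusted p = 0.00141; 1.06 without the divergent control). Its relative SLC38A5 fell by 1.80 (adjusted p = 3.86e-05; -1.53 without the divergent control), from 220.4 ± 66.0 to 63.2 ± 4.39 CPM. SLC36A1, a proton-coupled carrier of small amino acids, rose by 0.80 (adjusted p = 0.0267; 0.70 without the divergent control).

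For scale, 19 of 24 tested genes of the wider amino acid response rose in TOM-1 and 1 fell, with a median log2 fold change of 1.30 (21 and 1, with 1.46, without the divergent control). With all 12 libraries none of the genes in any of these lists passed in RS4;11, where no gene of the whole table did. When the divergent control was left out, 2 amino acid response genes passed there.

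**Figure D5:**
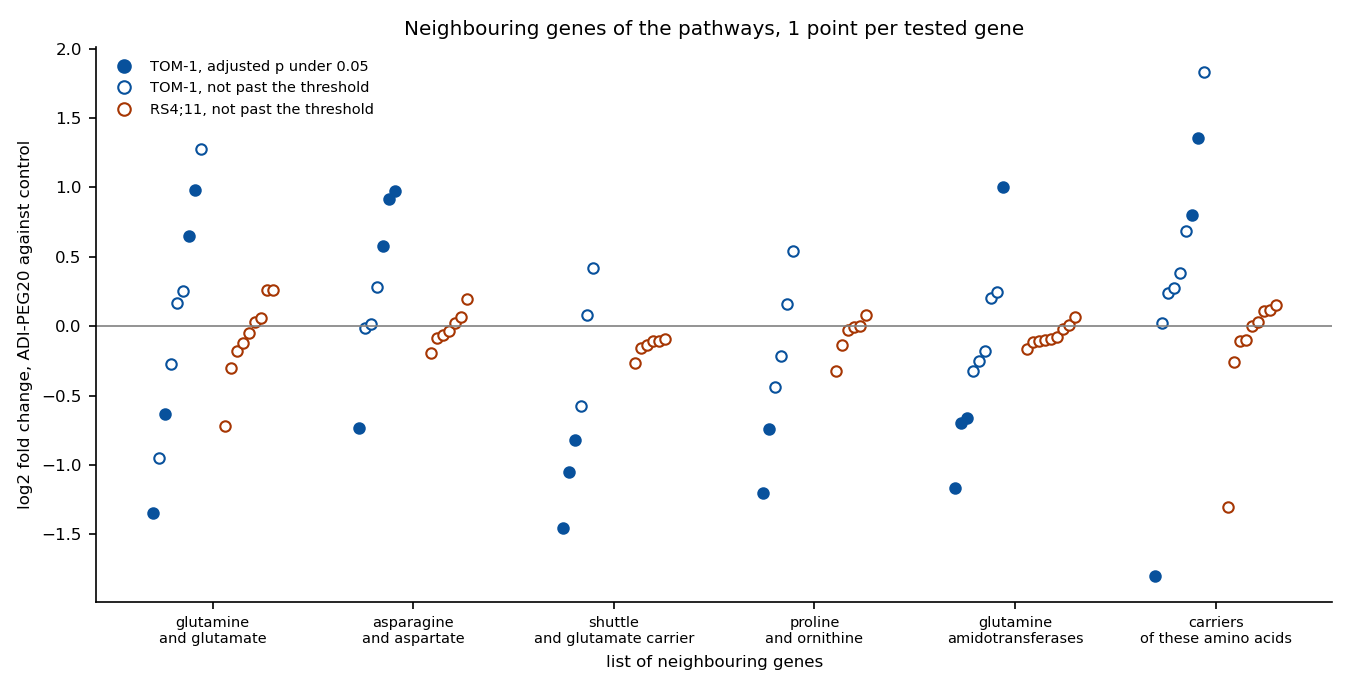
Log2 fold change with ADI-PEG20 on the vertical axis for each tested gene of 6 lists of neighbouring genes, with the lists along the horizontal axis, TOM-1 in blue and RS4;11 in orange. Filled points passed an adjusted p of 0.05. In the list of shuttle and glutamate carrier genes the filled TOM-1 points all lie below 0, and no RS4;11 point is filled.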

How the data were processed

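The authors deposited 1 table of raw read counts per Ensembl gene for 12 libraries. STAR, SAMtools, featureCounts and the build hg38 are named in the submitters' processing notes. Versions, the annotation release, the strand setting and the treatment of shared reads are not given in the sources used here. Per the labels' protocols, RNA was captured by its poly(A) tail. Groups came from the sample titles and characteristics.

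Ensembl identifiers were given symbols from a reference table (60463 of 60664 matched), and positions and overlaps from GENCODE on GRCh38 (58396 matched). Overlaps of 10% or more of a gene's exonic bases are given. Genes were filtered with filterByExpr and scaled by TMM. A model with 1 mean per group took all 12 libraries in R 4.3.3 with edgeR 4.0.16 (glmQLFit, glmQLFTest), with Benjamini-Hochberg adjustment over all 17349 genes (18321 without TOM-1 control replicate 3). The SE is the log2 fold change divided by the square root of F. CPM are TMM-scaled. The test was tested on simulated data. A count of 0 was taken to allow 3 counts, and this floor covers counting error only. Alternatives were other scalings and filters, DESeq2 1.42.0, voom quality weights in limma 3.58.1, the replicate block, the 6 libraries of a comparison alone, ASNS summed with the overlapping gene, and each library left out. Figures were drawn with matplotlib 3.10.9.

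The members and lists were chosen with earlier results of these data known. Up to 2 neighbouring genes per list and direction are named, those with the largest change among called genes with non-overlapping libraries and a mean of at least 5 CPM. Some genes that the rules select are not reported here. GPT and the isozyme ratios were chosen after their values were seen.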

Additional observations from a re-analysis of the deposited data

Results flagged for a closer look

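The effect of ADI-PEG20 differed between the lines for 4 of the 8 genes by edgeR's test of the difference itself, TOM-1 minus RS4;11 on the log2 scale. It was 2.16 for GOT1 (adjusted p = 7.11e-05), 1.37 for GPT2 (adjusted p = 0.000409), -1.71 for PYCR3 (adjusted p = 0.00963) and -0.89 for ALDH18A1 (adjusted p = 0.00298). Of all genes tested, 11.9% were called for this difference in the main fit. Leaving out the divergent control raised that share to 30.4%. All 4 were still called on leaving out each of the 12 libraries in turn, in fits that called 1169 to 5567 of all genes.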

How the results depend on the processing

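The count of the 8 genes called in TOM-1 was 6 with all libraries and 5 to 7 with each library left out in turn. It was 4 in the 6 TOM-1 libraries alone and 5 with ASNS summed with the overlapping gene. Of all genes tested in TOM-1, 5527 of 17349 were called with all libraries, and 3960 to 7616 with 1 library left out. The 6 TOM-1 libraries alone called 2639 of 15320, and the fit with ASNS summed called 5526 of 17348. With each library left out the count of the 8 genes stayed at 0 in RS4;11 and at 4 for the difference between the effects. Of all genes, 0 to 58 were then called in RS4;11 and 1169 to 5567 for the difference. In control culture the count was 3 of 8 (3 to 5). It was 5 there under voom quality weights and under the replicate block without TOM-1 control replicate 3. Those settings called 10037 of 17349 and 9657 of 18321 genes. The main fit called 6014 of 17349, and 4731 to 9681 were called with 1 library left out. Under ADI-PEG20 the count was 6 of 8 (4 to 8), beside 8182 of 17349 genes (6838 to 11531). GOT1 (2.06 to 2.34), GPT2 (1.24 to 1.45), PYCR3 (-2.23 to -1.57) and ALDH18A1 (-1.09 to -1.01) kept their calls in TOM-1 with each library left out and under every other alternative run. Directions changed only for differences that were not called with all libraries. In RS4;11 the log2 fold change with 1 library left out ran from -0.0479 to 0.94 for ASNS, from -0.028 to 0.0616 for GOT1 and from -0.0282 to 0.025 for GPT2, which was also 0.0046 with upper-quartile scaling and 0.0025 with no filter. Between the lines in control culture it ran from -0.0855 to 1.33 for ASNS, from -0.51 to 0.0749 for PYCR3 and from -0.0633 to 0.0798 for ALDH18A1. In that comparison GOT2 was 0.0075 with upper-quartile scaling and 0.0073 in the 6 libraries alone, and ASNS summed with the overlapping gene was -1.26 (adjusted p = 0.206). Without TOM-1 control replicate 3 the sum was called lower in TOM-1, at -0.71 (adjusted p = 0.0147). ASNS alone was then 1.33 and not called (adjusted p = 0.065). The cause was not tested.

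Same-numbered libraries did not deviate together in TOM-1 (r = -0.03, -0.01 and -0.06 across genes) and did so weakly in RS4;11 (0.06, 0.03 and 0.14), where 5 of 6 libraries, against 0 of 6 in TOM-1, correlated best with their own number. Deviations were taken from each group's mean, which in TOM-1 control includes the divergent replicate 3. The check therefore cannot decide whether the TOM-1 libraries were paired. The replicate block left the counts at 6, 0, 4, 3 and 6 of 8, and under ADI-PEG20 it exchanged GOT2 (-0.29, adjusted p = 0.058) for GLUL (-0.28, adjusted p = 0.049). In the same order, the block called 5324, 0, 1939, 5647 and 7964 of all 17349 genes tested. With the block and without TOM-1 control replicate 3, all 8 genes were called in TOM-1, and 6 for the difference between the effects. Of the 18321 genes tested in that setting, 7667 were called in TOM-1 and 5719 for the difference. Low counts limit ASNS most.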

Other observations

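Across the 11 libraries other than TOM-1 control replicate 3, the genes closest in profile to each enzyme gene were found by the root mean square difference of centred log2 CPM, among 10541 other genes (10542 for ASNS) with a mean of at least 5 CPM. For GOT1 it was IRF2BP2, at 0.0984, against a median of 0.984 over all genes. IRF2BP2 had a log2 fold change of 2.29 in TOM-1 and 0.00 in RS4;11. For PYCR3 it was POLR2L, a subunit of RNA polymerases (0.099), at -1.63 and -0.41, and for ALDH18A1 it was RPL24, a ribosomal protein (0.0509), at -1.08 and -0.06. For GPT2 it was CDKN2D, an inhibitor of cyclin-dependent kinases, and the difference was 0.139, with changes of 1.28 and 0.08. URI1 (0.0693) and CD81 (0.0449) were closest to GOT2 and GLUL. These were not distinct matches, since 77 genes lay within 0.1 of GOT2, 92 of GLUL and 32 of ALDH18A1, against 1 each for GOT1 and PYCR3. ASNS had no close neighbour, and its nearest, ZNF441, was at 0.551. Among the 8 genes themselves, GOT2 and GLUL were the closest pair (0.210) and ASNS and PYCR3 the farthest (2.35). A small difference does not mean a shared direction: without TOM-1 control replicate 3, the TOM-1 log2 fold changes were -0.42 for GOT2 and 0.14 for GLUL. The libraries are shared by all genes compared, and these are descriptions.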
